A study of Mus musculus with 15 samples.

Results

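The genes described here are 10 genes used as marks of macrophages and of antigen presentation: C1qa, C1qb, C1qc, Cd68, Adgre1, Csf1r, Cd74, H2-Aa, H2-Ab1 and Lyz2. They were picked by symbol, and all 10 were found among the 47069 genes of the table. Expression was measured by RNA-Seq in mouse kidney, in 12 libraries that each came from a single microdissected proximal tubule labelled PTS2, with 3 whole kidney libraries beside them. Every library was polyA RNA of male C57BL/6 mice aged 2 months, with no treatment or altered gene named in the labels, and cDNA was made with SMART-Seq V4, a kit for very small amounts of RNA. The PTS2 libraries form 3 sets, m1, m2 and m3, with 4 libraries each. The labels do not say what m stands for, whether tubules of a set came from 1 animal, or whether libraries of a group came from separate animals, so p-values measure only the spread between these libraries.

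Macrophages live in the connective tissue around renal tubules, where they clear debris, make complement and sample proteins. The 3 C1q chains join into the recognition molecule that starts the classical complement pathway. MHC class II molecules are pairs of an alpha and a beta chain that show peptides to CD4+ T cells. The invariant chain Cd74 guides these pairs through the cell and blocks their groove until a peptide is loaded. CSF1R is the receptor for the growth factors CSF1 and IL34, on which most tissue macrophages depend. A dissected tubule should hold epithelium with few of the cells around it. The comparison with whole kidney gives the level of these transcripts in tubule libraries beside that in kidney. Which cells in the tubule libraries made them was not tested.

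The promoters of members that were low together are shown first, as the 250 bases before the start of the RefSeq transcript on the gene's strand (GRCm38.p6), with motif matches in capitals. Of the 10 members, 5 had an entry in the promoter table used (C1qb, C1qc, Lyz2, Cd68 and H2-Aa). For the class II genes the motif searched was the Y box, CTGATTGG, and its reverse complement CCAATCAG. H2-Aa, the alpha chain of the I-A pair, is shown with H2-Eb1, another class II beta chain gene. H2-Eb1 is no member but was the class II gene most like the members across tubules.
H2-Aa (chr17:34287824-34288073, minus strand): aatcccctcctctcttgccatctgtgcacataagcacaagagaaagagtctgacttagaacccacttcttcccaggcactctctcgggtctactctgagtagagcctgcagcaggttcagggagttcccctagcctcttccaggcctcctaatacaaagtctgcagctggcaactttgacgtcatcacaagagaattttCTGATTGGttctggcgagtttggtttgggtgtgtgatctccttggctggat
H2-Eb1 (chr17:34305617-34305866, plus strand): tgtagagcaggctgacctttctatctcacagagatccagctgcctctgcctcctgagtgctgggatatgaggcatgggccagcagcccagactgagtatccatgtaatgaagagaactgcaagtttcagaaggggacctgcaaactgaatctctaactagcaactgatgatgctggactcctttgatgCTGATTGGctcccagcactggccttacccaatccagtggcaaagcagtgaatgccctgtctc

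The match began 51 bases before the start in H2-Aa and 62 bases before it in H2-Eb1. The Y box was found in 1258 of 32851 mouse promoters of this length, or 3.83%, on either strand. Among the members with a promoter entry only H2-Aa held it, and among 9 other class II pathway genes with an entry H2-Eb1 and H2-Oa did. For the C1q chains and Lyz2 the motif searched was AGGAAGT with its reverse complement ACTTCCT, the core bound by the myeloid ETS factor PU.1. The motifs do not overlap each other in letters.
C1qb (chr4:136886201-136886450, minus strand): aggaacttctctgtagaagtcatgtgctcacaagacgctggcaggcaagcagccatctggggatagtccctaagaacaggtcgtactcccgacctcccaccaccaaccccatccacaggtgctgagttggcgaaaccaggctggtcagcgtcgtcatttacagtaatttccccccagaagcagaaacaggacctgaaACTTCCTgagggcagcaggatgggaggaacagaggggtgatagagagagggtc
C1qc (chr4:136892915-136893164, minus strand): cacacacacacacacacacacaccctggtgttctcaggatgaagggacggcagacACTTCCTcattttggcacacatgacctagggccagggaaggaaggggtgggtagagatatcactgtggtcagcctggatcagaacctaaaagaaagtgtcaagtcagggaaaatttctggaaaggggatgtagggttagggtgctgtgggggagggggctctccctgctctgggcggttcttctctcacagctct
Lyz2 (chr10:117282273-117282522, minus strand): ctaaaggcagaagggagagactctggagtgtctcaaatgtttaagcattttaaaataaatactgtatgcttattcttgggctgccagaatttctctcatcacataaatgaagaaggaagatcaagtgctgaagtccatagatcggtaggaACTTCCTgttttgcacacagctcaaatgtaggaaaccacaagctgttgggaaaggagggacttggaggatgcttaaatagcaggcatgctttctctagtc

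In all 3 the match was in the reverse orientation, beginning 53 bases before the start in C1qb, 195 in C1qc and 100 in Lyz2. This motif was found in 2525 of the 32851 promoters, or 7.69%, and in 3 of the 5 members with an entry; the windows of Cd68 and H2-Aa did not hold it. Of the class II pathway genes with an entry, H2-Oa held it as well. A match describes the letters in this window and is not a measured binding site.

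Values are TPM, transcript abundances scaled to transcript length and to a common total of 1000000 per library. TPM keep no record of depth, so the depth of the libraries is unknown, and no counting interval or detection limit can be given. Between 16220 and 22512 genes were above 0 in a PTS2 library, and between 20186 and 20651 in a kidney library. The PTS2 libraries carried proximal tubule transcripts: Slc7a13, an amino acid transporter of the later proximal tubule, reached 1803 ± 233 TPM (SD, n = 12) against 773 ± 129 TPM (SD, n = 3) in whole kidney. Of 7 proximal tubule genes listed, 2 were called higher in PTS2 and 5 were not called, with a median log2 difference of -0.04. Slc34a1 went the other way, at -0.49 (limma adjusted p = 0.0788), and was called lower after quantile normalization (limma adjusted p = 0.0127). Of the PTS2 libraries, 3 stood apart. Library 3 of set m3 held thick ascending limb transcripts that summed over 5 genes to 1441 TPM, where the PTS2 median was 10.7 TPM and kidney libraries held 2425 to 2723 TPM. Library 4 of set m1 had the highest sum of 7 distal tubule and collecting duct genes among the tubules, at 15.2 TPM against 1111 to 1378 TPM in kidney. Library 2 of set m1 listed 75 genes at 0 that had at least 0.5 TPM in each of the other 14 libraries, where no other library had more than 2 such genes. Where leaving them out ended a call named here, that is said beside it.

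Of the 10 members, 9 were far lower in the dissected tubules than in whole kidney, and Csf1r was not. Mean levels of the 9 lay between 3.33% and 23.4% of the kidney mean, with a median of 10.5%, and for each of them every PTS2 library was below every kidney library. Such a complete separation downward was seen in 32.0% of all 12039 genes tested. Csf1r stood at 185.5% of the kidney mean. In the fit across all genes (limma on log2(TPM + 1), Benjamini-Hochberg adjusted, threshold 0.05), 51.2% of genes passed, 41.5% lower and 9.68% higher in PTS2. Of the genes called, 1165 of 6161 were higher, against 2826 of 5577 after median-of-ratios rescaling and 4164 of 6437 after quantile normalization, which shifted the median of all genes from -0.27 to 0.00 and 0.16. Of the 9 members that passed the filter of a mean of 1 TPM, 8 were called lower and 1 higher. These directions and calls were the same under both scalings. Adgre1 was under the filter, and Cd68 passed it only through its kidney level, which leaves 7 of 8 called lower among the others. The median log2 difference of the 9 members tested was -2.88, beside the -0.27 of all genes. Without the libraries with thick ascending limb and distal transcripts the count called remained 9, and without library 2 of set m1 it was 8, with Csf1r no longer passing. In such bulk libraries, fewer cells of a type and less RNA per cell cannot be told apart.

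**Figure D1:**
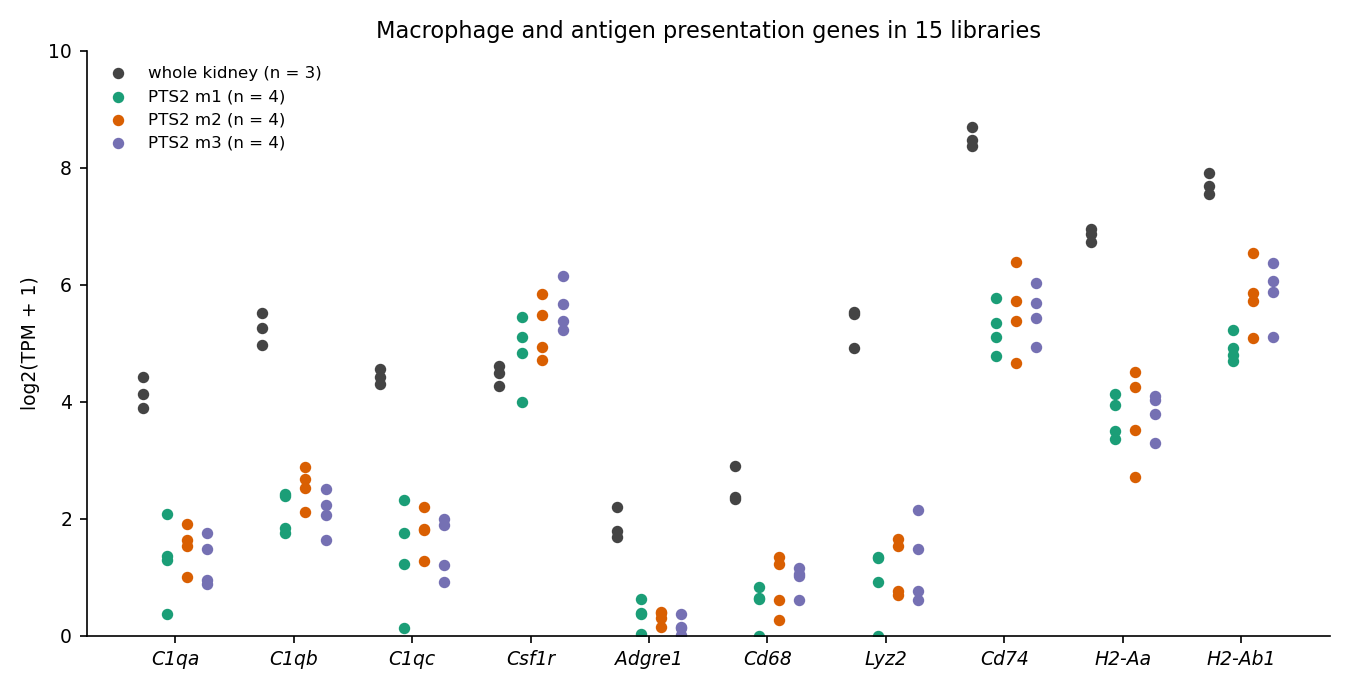
Each point is 1 library, with the 10 genes on the horizontal axis and log2(TPM + 1) on the vertical axis; colours mark whole kidney and the PTS2 sets m1, m2 and m3. For 9 genes all 12 PTS2 points lie below the 3 kidney points, and for Csf1r 11 of the 12 lie above them.

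The C1q chains lie next to each other on mouse chromosome 4, on the minus strand, with C1qb at chr4:136880129-136886187, C1qc at chr4:136889804-136893065 and C1qa at chr4:136895917-136898803 (GRCm38). C1qb was the most abundant of them, at 44.9, 30.2 and 37.2 TPM in the kidney libraries and at 2.09 TPM in the lowest, 3.98 TPM in the median and 6.39 TPM in the highest PTS2 library. The groups were far apart, since even the highest tubule held a small part of the lowest kidney value. C1qb was lower in PTS2, by -2.99 on the log2 scale with an SE of 0.23 (limma adjusted p = 1.12e-08).

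C1qa was at 20.5, 13.9 and 16.5 TPM in kidney and ran from 0.30 TPM over a median of 1.68 TPM to 3.22 TPM in PTS2. C1qc was at 22.5, 20.5 and 18.7 TPM in kidney and ran from 0.10 TPM over a median of 2.43 TPM to 3.98 TPM in PTS2. For both chains the lowest tubule was library 2 of set m1 and the highest was library 4 of set m1. The log2 differences were -2.80 ± 0.29 for C1qa (limma adjusted p = 4.43e-07) and -2.88 ± 0.35 for C1qc (limma adjusted p = 3.37e-06).

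The 3 chains are needed in equal number in the C1q molecule, and they kept similar proportions of TPM in both tissues. C1qb made up 46.7% to 51.4% of the C1q sum in kidney, and its median share in PTS2 was 51.4%, with a range of 37.6% to 85.5%. The highest share came from library 2 of set m1, where C1qa and C1qc were close to 0. Mean levels in PTS2 were 9.93%, 10.5% and 10.4% of kidney for C1qa, C1qb and C1qc.

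The class II members were the most abundant of the 10 in whole kidney. H2-Aa, at chr17:34282744-34287823 on the minus strand, and H2-Ab1, at chr17:34257689-34269419 on the plus strand, code for the alpha and beta chains of the same I-A molecule. Cd74, the invariant chain, lies at chr18:60803848-60812652 on the plus strand, where its exons also span the microRNA gene Mir5107. Cd74 was at 412, 329.9 and 355 TPM in the kidney libraries and between 24.3 and 82.99 TPM in PTS2, with a median of 41.5 TPM. H2-Aa was at 123, 105 and 115 TPM in kidney and between 5.58 and 21.8 TPM in PTS2, with a median of 13.7 TPM. H2-Ab1 was at 239, 187.5 and 205 TPM in kidney and between 25.0 and 92.3 TPM in PTS2, with a median of 44.0 TPM. For all 3 genes library 4 of set m2 was the highest tubule, and it was still below the lowest kidney library.

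The log2 difference was -3.08 ± 0.29 for Cd74 (limma adjusted p = 1.61e-07) and -3.09 ± 0.29 for H2-Aa (limma adjusted p = 1.27e-07). For H2-Ab1 it was -2.20 ± 0.33 (limma adjusted p = 4.05e-05). PTS2 means were 12.3%, 11.6% and 23.4% of kidney for Cd74, H2-Aa and H2-Ab1. These transcripts were lower but not scarce in the tubules: the 3 class II members summed to 62.8 TPM in the lowest tubule, 104.7 TPM in the median and 197 TPM in the highest, against 622 to 775 TPM in kidney. The C1q chains summed to 2.76, 8.63 and 11.8 TPM in the lowest, median and highest tubule, against 64.6 to 88.0 TPM in kidney.

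Within the I-A pair the beta chain was less reduced than the alpha chain. The ratio of H2-Ab1 to H2-Aa was 1.78 to 1.94 in kidney. In PTS2 it was 2.03 to 2.71 in set m1, 3.16 to 5.91 in set m2 and 3.59 to 6.37 in set m3. All tubules lay above all kidney libraries in this ratio, and set m1 lay below sets m2 and m3 with no overlap. The ratio was formed after the values were seen, and its differences were not tested. Other class II ratios overlapped between tissues: that of H2-Eb1 to H2-Aa was 0.806 to 0.839 in kidney and 0.556 to 0.979 in PTS2, and that of Cd74 to H2-Aa was 3.08 to 3.34 in kidney and 2.54 to 4.98 in PTS2.

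**Figure D2:**
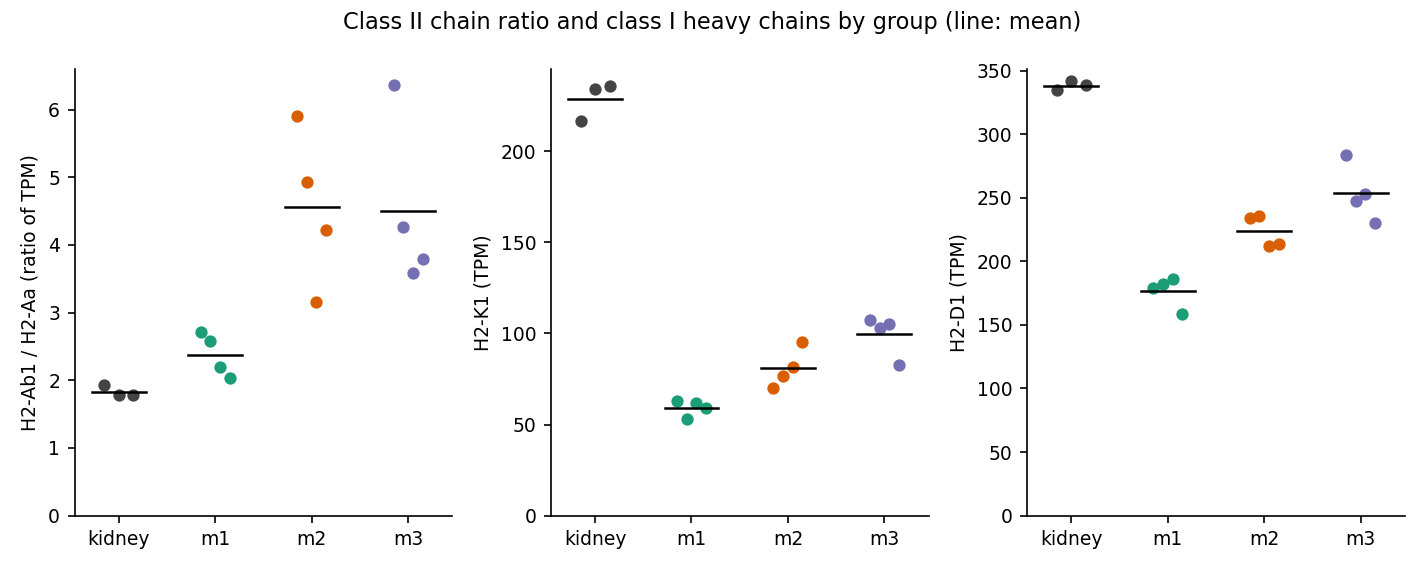
Points are libraries and lines are group means, for the ratio of H2-Ab1 to H2-Aa (left) and for the TPM of the class I heavy chains H2-K1 (middle) and H2-D1 (right), each in whole kidney and in sets m1, m2 and m3. The ratio is 1.78 to 1.94 in kidney and 2.03 to 6.37 in PTS2, while both heavy chains are lower in every tubule than in kidney and lowest in set m1.

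Lyz2, at chr10:117277331-117282321 on the minus strand, codes for the lysozyme of macrophages and neutrophils, which cuts bacterial cell walls. It was at 44.4, 29.1 and 45.2 TPM in kidney and ran from 0 over a median of 1.21 TPM to 3.43 TPM in PTS2. It was listed at 0 in library 2 of set m1 and was highest in library 1 of set m3. Lyz2 had the largest difference of the members tested, with a log2 difference of -4.21 ± 0.34 (limma adjusted p = 2.51e-08), and its PTS2 mean was 3.33% of kidney. Its transcripts share 15.4% of their 50-base stretches with Lyz1, so reads could be split between these genes. Lyz1 was listed at 0 in all 12 PTS2 libraries and averaged 0.443 TPM in kidney.

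Cd68, at chr11:69664213-69666153 on the minus strand, codes for a lysosomal membrane glycoprotein of phagocytes. It was at 6.46, 4.20 and 4.07 TPM in kidney and ran from 0 over a median of 0.67 TPM to 1.55 TPM in PTS2. The lowest tubule was again library 2 of set m1 and the highest library 4 of set m2. Its log2 difference was -1.76 ± 0.25 (limma adjusted p = 1.71e-05). Cd68 passed the filter only through its kidney level, so a lower call was favoured in advance. Adding 1 to such low TPM makes the log2 difference smaller than the ratio of means, at which PTS2 held 15.9% of kidney.

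Adgre1, at chr17:57358691-57483527 on the plus strand, codes for F4/80, the surface protein by which mouse macrophages are commonly stained. It was at 3.57, 2.23 and 2.44 TPM in kidney and ran from 0.01 over a median of 0.26 TPM to 0.54 TPM in PTS2, or 8.04% of kidney. Its mean over all libraries was under the filter of the main fit. With no filter on low values its log2 difference was -1.61 ± 0.14 (limma adjusted p = 1.29e-07), in a fit where 26.9% of 30969 genes were called lower.

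Csf1r, at chr18:61100598-61132149 on the plus strand, went the other way. It was at 21.5, 23.5 and 18.3 TPM in the kidney libraries. In PTS2 it was at 42.8, 33.2, 27.4 and 14.99 TPM in libraries 1 to 4 of set m1. In set m2 it was at 56.0, 43.9, 29.5 and 25.3 TPM, and in set m3 at 69.7, 50, 40.4 and 36.5 TPM. Thus 11 of 12 tubules were above the highest kidney library and 1, library 4 of set m1, was below the lowest. In each set the library numbered 1 was the highest and the library numbered 4 the lowest.

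Csf1r averaged 39.2 ± 14.8 TPM (SD) over the 12 tubules, against 21.1 ± 2.65 TPM (SD) over the 3 kidney libraries, a ratio of 1.86. The log2 difference was 0.77 ± 0.31, just past the threshold (limma adjusted p = 0.0481). The direction was the same in all 24 alternatives, with log2 differences of 0.68 to 1.14. However, 13 of them no longer passed, and limma adjusted p ranged from 0.00159 to 0.162. The lowest value came from the fit with the library number as a block. The labels do not say whether kidney and tubule numbers correspond. Leaving out 1 library ended the call in 11 of 15 cases. It was kept only without library 3 or 4 of set m1 or library 3 or 4 of set m2. The filter on low values also decided it, since the limma adjusted p was 0.0904 with none and 0.0534 with a mean of at least 10 TPM.

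**Figure D3:**
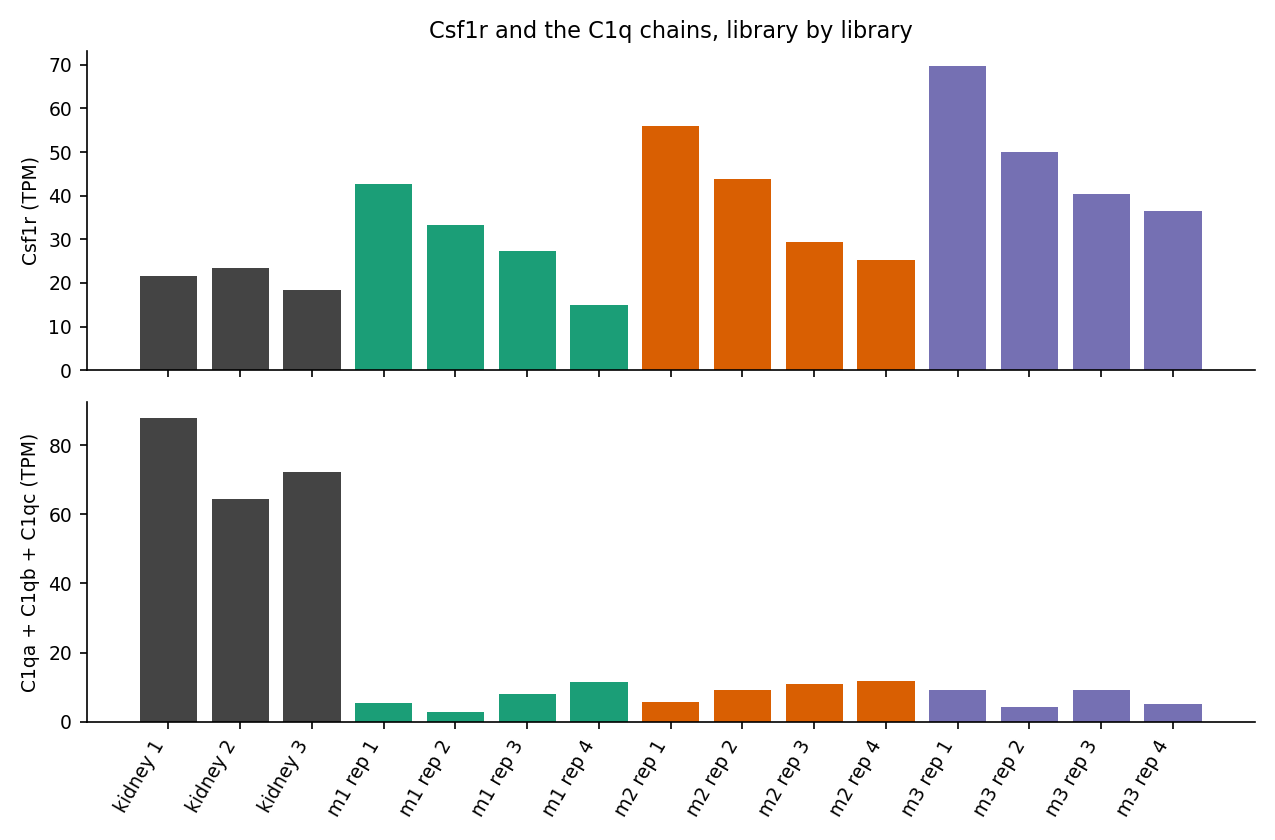
Bars give TPM in each of the 15 libraries, for Csf1r (top) and for the sum of C1qa, C1qb and C1qc (bottom), coloured by group. Csf1r is at 14.99 to 69.7 TPM in the tubules and 18.3 to 23.5 TPM in kidney, whereas the C1q sum is at most 11.8 TPM in the tubules and at least 64.6 TPM in kidney.

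The level of Csf1r did not go with that of the macrophage genes across tubules. The ratio of Csf1r to the C1q sum was 0.245 to 0.364 in kidney and 1.30 to 12.0 in PTS2. Over the 12 PTS2 libraries, Pearson's r of Csf1r on the log2(TPM + 1) scale was -0.37 with C1qa, -0.39 with C1qb, -0.54 with Adgre1 and 0.00 with Cd68. With proximal tubule genes r was 0.93 for Slc7a13 and 0.82 for Slc27a2, a fatty acid transporter. It was -0.77 for Slc34a1, the phosphate transporter, and -0.83 for Slc22a6, an organic anion transporter. The other genes of that list gave weaker values, 0.52 for Aqp1, 0.31 for Cubn and -0.13 for Lrp2. These values describe 12 libraries whose depth is unknown, and they are given without a test. In every set Csf1r fell in the order of the library number. These r therefore cannot be told apart from a change with that number.

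The 10 genes most like Csf1r over the tubules were Nceh1, Gpm6a, Sqle, Bok, Galns, Gclc, Adam15, Cds1, Asah1 and Mep1b, with r of 0.96 to 0.97. This likeness was looked up after the Csf1r values were seen, and it too cannot be told apart from a change with the library number. In all, 72 of 12966 genes had r over 0.9 with Csf1r. Of those named, Nceh1 averaged 278 TPM in PTS2 and 153 TPM in kidney, and Mep1b, a brush border metalloprotease subunit, 659 and 229 TPM. Cds1 was the exception, at 13.3 TPM in tubules and 21.9 TPM in kidney.

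The exons of Csf1r overlap those of Hmgxb3, a gene on the opposite strand, over 824 of 5776 stretches of 50 bases, or 14.3% of its transcript sequence. Whether reads were assigned by strand is not given in the sources used here, so reads from the overlap cannot be told apart. Hmgxb3 itself averaged 8.53 ± 1.75 TPM (SD) over the 12 tubules, against 9.26 ± 1.77 TPM (SD) over the 3 kidney libraries, with a log2 difference of -0.11 ± 0.17 (limma adjusted p = 0.596). The other members had none of their 50-base stretches in another gene, except Lyz2 as above and H2-Aa with 0.51%.

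The partners of these genes were examined through lists of the same pathways. Of 12 class II partners, 5 were tested and 4 were lower in PTS2, with a median log2 difference of -2.16. For comparison, 41.5% of all genes tested were called lower. H2-Eb1 was at 9.94 ± 3.03 TPM (SD, n = 12) against 94.1 ± 8.93 TPM (SD, n = 3). Ctss, the cathepsin that trims the invariant chain, was at 1.90 ± 0.88 TPM against 20.4 ± 3.70 TPM. H2-DMb1, a chain of the peptide exchange factor, was at 4.08 ± 2.15 TPM against 19.2 ± 1.42 TPM. Ifi30, a thiol reductase of lysosomes, was at 49.8 ± 5.79 TPM against 50.5 ± 2.24 TPM, with a log2 difference of -0.03 ± 0.10 (limma adjusted p = 0.828). Ciita, the master regulator of class II genes, was under the filter, at 0.157 TPM in tubules and 0.993 TPM in kidney, and the costimulatory gene Cd80 was listed at 0 in all 15 libraries.

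Class I presentation, which most nucleated cells carry out, was lower as well. All 13 class I genes tested were lower in PTS2, with a median log2 difference of -1.46 and a range of -2.96 to -0.29. Over all genes tested, 41.5% were called lower. The heavy chain H2-K1 was at 79.9 ± 19.2 TPM (SD, n = 12) against 229 ± 10.5 TPM (SD, n = 3), and H2-D1 at 218 ± 36.4 TPM against 338 ± 3.83 TPM. B2m, their shared light chain, was at 202 ± 48.6 TPM against 684 ± 73.8 TPM. The immunoproteasome subunit Psmb8 was at 9.28% of kidney, while the folding factors Pdia3 and Calr, which every cell uses for other proteins too, were at 72.2% and 81.8%. Scaling mattered for the small changes: after median-of-ratios rescaling 10 of the 13 passed, and Calr had a log2 difference of 0.00 (limma adjusted p = 0.995). Transcripts of H2-K1 and H2-D1 share 9.63% and 12.8% of their 50-base stretches with other genes, so their levels are uncertain by the sharing of reads.

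Of 16 complement genes other than C1q, 10 were tested, 7 of them lower and 2 higher in PTS2. Over all genes tested, 41.5% were called lower and 9.68% higher. Of the 7, C1ra, C1s1 and Cfd passed the filter only through their kidney level, which leaves 4 lower among the others. Serping1, the inhibitor of C1, was at 2.68 ± 1.34 TPM (SD, n = 12) against 61.1 ± 7.64 TPM (SD, n = 3), and Cd59a, which blocks the membrane attack complex, at 12.5 ± 3.77 TPM against 63.7 ± 7.94 TPM. Cd55, which speeds the decay of complement convertases, was higher, at 35.6 ± 4.97 TPM against 20.8 ± 1.30 TPM, with all 12 tubules above all kidney libraries and a log2 difference of 0.74 ± 0.12 (limma adjusted p = 9.95e-05). Cfb, factor B of the alternative pathway, was at 530 ± 92.2 TPM against 411 ± 41.7 TPM, with a log2 difference of 0.35 ± 0.13 (limma adjusted p = 0.0371). The Cfb call was lost in 8 of 24 alternatives, among them quantile normalization (limma adjusted p = 0.149) and leaving out library 1 or 3 of kidney, library 1 of set m1 or library 4 of set m2. It was also lost with no filter (limma adjusted p = 0.0674) and with the library number as a block (limma adjusted p = 0.064). Without library 3 of set m3 and library 4 of set m1 together it was lost as well (limma adjusted p = 0.0541). Cfb shares 73.0% of its 50-base stretches with the overlapping gene model Gm20547, and Cd55 shares 9.12%, so both levels depend on how reads were divided. Cr1l, another convertase regulator, did not pass, at 78.7 ± 5.25 TPM against 85.9 ± 5.36 TPM.

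In the list of CSF1 receptor ligands and signalling genes, 5 of 6 tested were lower and 1 was higher. The shares over all genes tested were 41.5% and 9.68%. Of the 5 lower genes in the list, Plcg2 passed the filter only through its kidney level. The adapter Grb2, at 71.8% of kidney, lost its call under both other scalings, with a limma adjusted p of 0.0766 after median-of-ratios rescaling and 0.165 after quantile normalization. The higher gene was the ligand Il34, at 56.8 ± 15.6 TPM (SD, 12 tubules) against 38.1 ± 4.59 TPM (SD, 3 kidney libraries), with 10 of 12 tubules above all kidney libraries. Its log2 difference was 0.52 ± 0.20 (limma adjusted p = 0.0370). That call held in 17 of 24 alternatives, with adjusted p from 0.00281 to 0.130, and it was lost without library 1 or 3 of kidney or library 2 or 3 of set m3. It was also lost with no filter (limma adjusted p = 0.0715) and with the library number as a block (limma adjusted p = 0.069). Without library 3 of set m3 and library 4 of set m1 together it was lost as well (limma adjusted p = 0.0682). The other ligand, Csf1, was under the filter, at 0.387 TPM in tubules and 3.17 TPM in kidney. The adapter Tyrobp was at 3.43 ± 1.68 TPM against 28.9 ± 4.09 TPM, and Spi1, which codes for PU.1, was under the filter at 0.360 TPM against 3.55 TPM. Exons of Il34 overlap the antisense gene models Gm15894 and Gm15895.

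**Figure D4:**
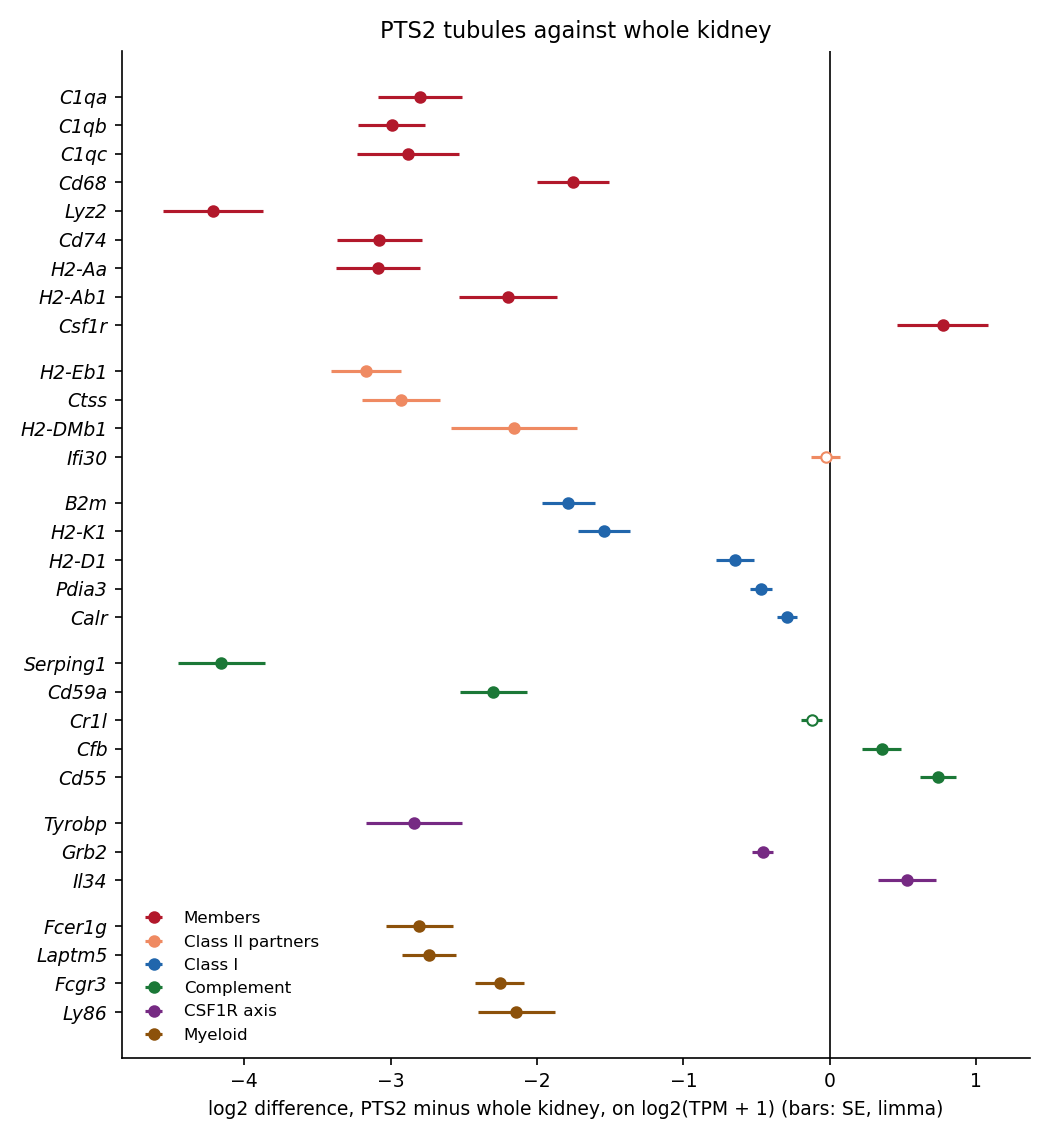
Points are log2 differences between PTS2 and whole kidney on log2(TPM + 1), with bars of 1 SE from limma; filled points passed an adjusted p of 0.05 and open points did not. The members tested and examples from the pathway lists are grouped by colour, and Csf1r, Cd55, Il34 and Cfb are the points to the right of 0.

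Macrophage and monocyte genes that are no members were low in the tubules too. For all 17 of those listed every PTS2 library was below every kidney library, and their means were at most 11.8% of kidney, with a median of 9.13%. Such a separation was seen in 32.0% of all genes tested. A kidney mean under 1 TPM was found for 6 of the 17. Only 7 of the 17 entered the fit, and all 7 were called lower, beside 41.5% of all genes tested. However, Cd14, Fcgr3, Aif1, Cd53 and Ly86 passed the filter only through their kidney level and so had to differ. The sum of the 17 was 6.17 TPM in the lowest and 11.9 TPM in the highest tubule, against 73.9 to 88.0 TPM in kidney. Fcer1g, the signalling chain of Fc receptors, was at 11.4% of kidney and Laptm5, a lysosomal protein of blood cells, at 9.24%. Of the 17, 11 were listed at 0 in at least 1 tubule, among them Lyz1 in every tubule.

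Genes of some other cell types were lower as well. The endothelial list summed to between 22.4 and 89.2 TPM in PTS2, with a median of 42.4 TPM that was 14.5% of the kidney mean. That sum was highest in library 1 of set m3, which also had the highest Csf1r and Lyz2. All 6 endothelial genes tested were lower, beside 41.5% of all genes tested. The fibroblast list had a median sum of 2.37% of kidney, the dendritic cell list 9.15%, the lymphocyte list 3.75% and the neutrophil and mast cell list 2.19%. In the lymphocyte list 4 of 9 genes, and in the neutrophil and mast cell list 2 of 7, were below every kidney library in every tubule. Such a separation was seen in 32.0% of all genes tested, and only 1 gene of each of these lists was tested. The counts therefore show nothing particular to these cells. Of these lists, 6 and 4 genes had a kidney mean under 1 TPM. Mpo, a neutrophil enzyme, was above kidney in its mean, at 0.112 TPM against 0.0267 TPM, but was listed at 0 in 8 of 12 tubules. Whether these cells contributed to the class II transcripts found in the tubule libraries was not tested. Of the lysosomal genes, which proximal tubule cells use for reabsorbed protein, 3 of 7 were lower and 4 did not pass. Their median log2 difference was -0.10. Of all genes tested 41.5% were called lower, so this count is not particular to lysosomal genes. The protease Ctsl was lower in all 24 alternatives, at 60.7% of kidney and a log2 difference of -0.72 (limma adjusted p = 1.14e-06). Lamp1 and Lamp2, abundant lysosomal membrane proteins, had log2 differences of -0.10 and 0.01. Small differences turned with the scaling: 3 lysosomal genes were called higher and 1 lower after median-of-ratios rescaling, and 2 higher and 4 lower after quantile normalization.

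The tubules themselves differed in how much of these genes they held. Library 4 of set m2 was among the 3 highest tubules for 9 of the 10 members, all but Csf1r, and was the highest for Cd68, Cd74, H2-Aa and H2-Ab1. Library 1 of set m3 was among the 3 highest for 7 members. Library 4 of set m1, the tubule with the lowest Csf1r, was the highest for C1qa, C1qc and Adgre1. At the other end, library 2 of set m1 was the lowest for 4 members and among the 3 lowest for 8. That is the library with many genes listed at 0. Library 3 of set m3, the one with thick ascending limb transcripts, was among neither the 3 highest nor the 3 lowest for any member.

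**Figure D5:**
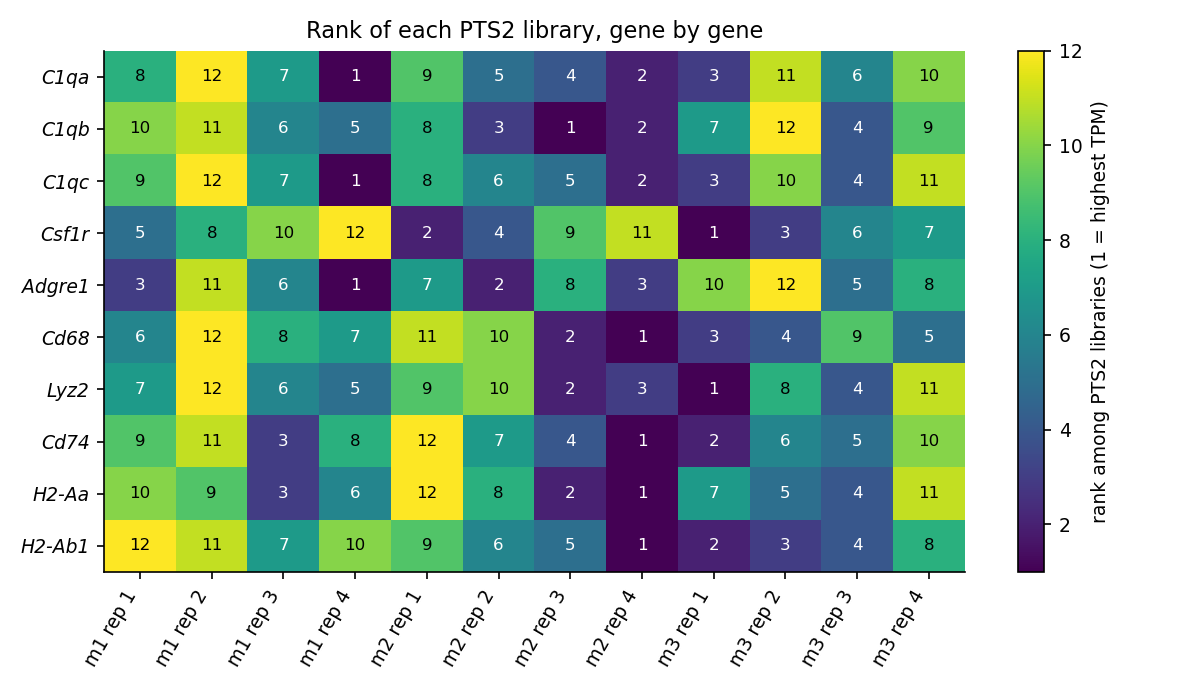
Cells give the rank of each of the 12 PTS2 libraries (columns) for each of the 10 genes (rows), where 1 is the highest TPM and 12 the lowest. Library 4 of set m2 ranks 1 to 3 for 9 genes but 11 for Csf1r, and library 2 of set m1 ranks 12 for 4 genes.

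Across the 12 tubules the low members went together to different degrees, on the log2(TPM + 1) scale and without a test. With the mean of the C1q chains, r was 0.82 for Lyz2, 0.74 for Cd74, 0.65 for Adgre1, 0.56 for H2-Aa and 0.50 for H2-Ab1. With the mean of the class II members, r was 0.92 for H2-Eb1, 0.72 for Lyz2, 0.71 for Cd68 and 0.01 for Adgre1. Each library's genes share 1 amplification and 1 depth, which the values do not record.

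Among the 10 genes most like the C1q chains were Ada, Npr3, Hoxb3os, Gabarapl1, Rflna, Fkbp11, Gbp2, Ccdc12 and Tmem14c, with r of 0.86 to 0.91, and 3 of 12964 genes had r over 0.9. Ada, adenosine deaminase, averaged 0.297 TPM in tubules and 3.02 TPM in kidney, whereas Gabarapl1, an autophagy gene, was at 293 and 472 TPM. Among the 10 genes most like the class II members were H2-Eb1, Slfn2, Sfxn4, Gnptg, Sox18, Man2c1os, Angptl2, Serping1 and Tmcc2, with r of 0.82 to 0.92. Sox18, an endothelial transcription factor, averaged 1.78 TPM in tubules and 18.1 TPM in kidney.

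Among the sets m1, m2 and m3, none of the 8 members tested passed the limma F test after adjustment, where 3.02% of 11300 genes did. This was the fit without a block on the library number. Before adjustment, 1 member passed 0.05, H2-Ab1, whose limma adjusted p was 0.152. It was at 25.0, 26.8, 36.5 and 29.3 TPM in set m1. In set m2 it was at 33.0, 51.6, 57.1 and 92.3 TPM, and in set m3 at 81.9, 65.7, 57.8 and 33.4 TPM. Set m1 was thus low and narrow, and it overlapped sets m2 and m3 only in their lowest libraries. The log2 difference of set m3 from set m1 was 0.94 ± 0.29 (limma adjusted p = 0.110).

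The partner H2-Aa did not show this, with set means of 12.7, 14.0 and 13.3 TPM and a limma adjusted p of 0.991. Csf1r had set means of 29.6 ± 11.6, 38.7 ± 14.0 and 49.2 ± 14.8 TPM, in the order m1 to m3 with the SD of 4 libraries. The sets overlapped (limma adjusted p = 0.388), but among libraries of the same number Csf1r always rose from m1 over m2 to m3. With the library number as a block the limma F test gave an adjusted p of 0.00678 for Csf1r. The labels do not say what the numbers mark. C1qb had set means of 3.38, 4.97 and 3.43 TPM, with a limma adjusted p of 0.443. Cd68 and Adgre1 were under the filter of this fit.

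From the pathway lists, H2-K1, H2-D1 and Il34 differed among the sets. In the same order, H2-K1 averaged 59.3 ± 4.33, 80.8 ± 10.7 and 99.6 ± 11.5 TPM (limma F test, adjusted p = 0.00555), and set m1 did not overlap the others. H2-D1 was at 176.5 ± 12.3, 224 ± 12.7 and 254 ± 22.2 TPM (limma F test, adjusted p = 0.00593). The differences of m3 from m1 were 0.73 ± 0.11 and 0.52 ± 0.08 on the log2 scale. Both calls held in 18 of 19 alternatives and were lost without library 3 of set m3 and library 4 of set m1 together (adjusted p = 0.055 each).

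Il34 averaged 58.1 ± 4.59, 42.0 ± 6.31 and 70.3 ± 17.2 TPM, again m1 to m3 with the SD of 4 libraries (limma F test, adjusted p = 0.0428). This call was fragile, since 12 of 19 alternatives lost it and it held in 3 of 12 cases with 1 library left out. Those were without library 1 of set m1, library 1 of set m3 or library 4 of set m3. Without library 3 of set m3 and library 4 of set m1 together the limma adjusted p was 0.119.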

How the data were processed

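The authors deposited 1 table of TPM per gene and library for 12 PTS2 and 3 whole kidney libraries. Per the submitters' processing notes, STAR 2.5.1b, RSEM 1.2.31 and the genome build GRCm38.p5 were used; the annotation release is not given in the sources used here. TPM divide by transcript length, so an overlapping or near-identical gene can take part of a level. The authors' 4 columns of means and errors were left aside, and the description labels gave each library its group.

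Values were tested as log2(TPM + 1) with limma 3.58.1 in R 4.3.3 (mean-variance trend, Benjamini-Hochberg over all genes tested, threshold 0.05, genes whose mean reached 1 TPM): PTS2 against whole kidney with the set as a correlated block, and an F test over the 3 PTS2 sets. A fold on this scale understates the change of low genes. Tested on simulated data with 200 of 12039 genes changed by a log2 difference of 1, the fits recovered 167 against kidney and 155 among sets, with 12 and 6 false calls.

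The members and the other gene lists were chosen with earlier results of these data known. Named were all members and, from each other list, the 4 genes highest in kidney and any gene called higher in PTS2 or among sets; further list genes were named after their values were seen. Some genes that met these rules are not reported here. Likeness was Pearson's r over the 12 tubules, for genes whose kidney mean reached 1 TPM and above 0 in at least 6 tubules. Gene positions and shared 50-base stretches came from the GENCODE M21 annotation of GRCm38, and promoters from RefSeq (GRCm38.p6). Alternatives were a pseudocount of 0.1, median-of-ratios and quantile scaling, no filter or a mean of at least 10 TPM, a replicate block, no within-set correlation, 1 mean per set, and libraries left out. Leaving out library 2 of set m1 for the levels and the likeness to Csf1r were chosen after seeing the data.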

Additional observations from a re-analysis of the deposited data

How the results depend on the processing

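For the 8 members called lower than in whole kidney, direction and call were the same in each alternative in which they were tested. Over the 9 members tested against kidney and the 8 tested among sets, 346 of 360 alternatives gave the same verdict, and the 14 that did not all concerned Csf1r. The number of members called was 9, and 4 with a mean of at least 10 TPM, where fewer members were tested. The number of genes called against whole kidney was 6161. It was 9399 with no filter, where more genes were tested, and 3113 with a mean of at least 10 TPM, where fewer were. Of the 6161 genes, 1165 were higher in PTS2, against 2826 of 5577 after median-of-ratios rescaling and 4164 of 6437 after quantile normalization, as the median log2 difference of all genes moved from -0.27 to 0.00 and 0.16. Csf1r was higher by 1.05 and 1.14 under those scalings. The F test among sets called 341 genes. It called 196 with no filter, 175 without library 3 of set m3 and library 4 of set m1 together, and 197 to 563 with 1 library left out, fewest without library 1 of set m3 and most without library 1 of set m1. Library 2 of set m2 and libraries 2 and 3 of set m3 also moved it by over 1.5 times when left out, to 220, 226 and 209. The cause was not tested. With the replicate block 888 genes were called among the sets, and 1 member, Csf1r (limma adjusted p = 0.00678), where none passed without the block. Libraries with the same number correlated with r of 0.0254 to 0.273 in their deviations from the set means, a mean of 0.143 and over 0.1 in 7 of 12 pairs. Those with different numbers had a mean of -0.0481, and 2 of 36 were over 0.1. Deviations from a set mean cancel within each set. A positive mean for the same number therefore brings a negative mean for different numbers, which is no separate result. Of the 12 libraries, 10 correlated best with their own number. What the numbers mark was not tested. Since not every pair was over 0.1 and the labels do not say what the numbers mark, the fit without the block was kept. Against kidney the replicate block called 6292 genes and 9 members, but neither Il34 (limma adjusted p = 0.0689) nor Cfb (0.0641). The labels do not say whether kidney and tubule numbers correspond. Among the sets the replicate block gave a limma adjusted p of 0.00831 for Il34. The median level of the members was 11.1% of kidney (mean over 12 tubules, SD 3.97), and 11.7% without library 2 of set m1. No depth is known, so no limit from counting can be given.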
